A study of Mus musculus with 13 samples.

Results

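The 33 genes described here run the cell division cycle and were chosen by gene symbol, with no measured value in the rule. All 33 were among the 14518 gene entries measured by RNA sequencing in sorted mouse microglia, the resident macrophages of the brain. Cells were CD11b+ with intermediate CD45, taken from C57BL/6 mice that were 2 months old. In 7 libraries (RSD 2, 7, 8, 10, 11, 12 and 13) the mice had been put through repeated social defeat for 6 cycles, in which an aggressor is placed with them. In the other 6 libraries (CON 1, 4, 5, 17, 18 and 19) they were controls. RNA was taken 24 days after the final cycle. No genetic change is named for either group. Whether each library is 1 animal is not stated, and p-values here reflect how much libraries differ, part of which may be technical. The comparison asks whether cell cycle transcripts still differed after stress at that time.

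Cell division is driven by cyclins that switch on cyclin-dependent kinases in turn. D-type cyclins with Cdk4 start the cycle in response to growth signals. The Mcm2 to Mcm7 helicase and the clamp Pcna copy the DNA. Kinases, motors and kinetochore proteins then separate the chromosomes, and most of their genes are transcribed only in late S, G2 and M phase. Adult microglia renew themselves by division within the brain and few of them divide at any time under resting conditions. In RNA from pooled cells, fewer cycling cells and less RNA per cycling cell cannot be told apart.

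Values are reads divided by a size factor for each library, called normalized reads here. Libraries held 9.76 to 12.3 M reads. A gene was tested if edgeR's filter kept it, which asks for about 10 reads in as many libraries as the smaller group holds. It kept 12496 of the 14518 entries and 29 of the 33 genes. Those left out were Aurkb, Birc5, Bub1 and Ube2c, with 96, 101, 116 and 63 reads over the 13 libraries. All 4 act in mitosis.

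CON 18 and, to a lesser degree, RSD 8 stood apart from the other libraries, and results are given with and without them. The median Spearman correlation of a library with the others, over the genes tested, was 0.942 in CON 18, 0.968 in RSD 8 and 0.989 to 0.992 in the rest. Microglial markers summed to 314520 to 334739 normalized reads in the other 12 libraries and to 209299 in CON 18, with 12 of 12 markers in the table. Markers of border macrophages, which lie in the meninges and around vessels (8 of 9 in the table), summed to 4916 to 8581 in the other libraries and 33191 in CON 18. In CON 18 the border macrophage receptor Mrc1 was at 12409 normalized reads. None of these 8 markers was at 0 in CON 18. The part of these cells in the values of CON 18 below was not tested.

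Per kilobase of exon, the genes of starting the cycle and of replication were the more abundant. The median over 13 libraries was 676 normalized reads per kilobase for Pcna, the sliding clamp of DNA polymerase. It was 222 for Ccnd1 (cyclin D1), 117 for the helicase subunit Mcm3 and 91.8 for Cdk4. The other genes of these groups lay between 9.73 (Mcm2) and 55.2 (Mcm7). Among the 22 mitotic genes the highest was Stmn1, a microtubule-destabilizing protein that is also used outside division, at 25.2. Next came the proliferation marker Mki67 at 12.2, and the lowest was the checkpoint kinase Bub1 at 1.33. Exon lengths merge all annotated isoforms, so levels of genes with many isoforms are understated.

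**Figure D1:**
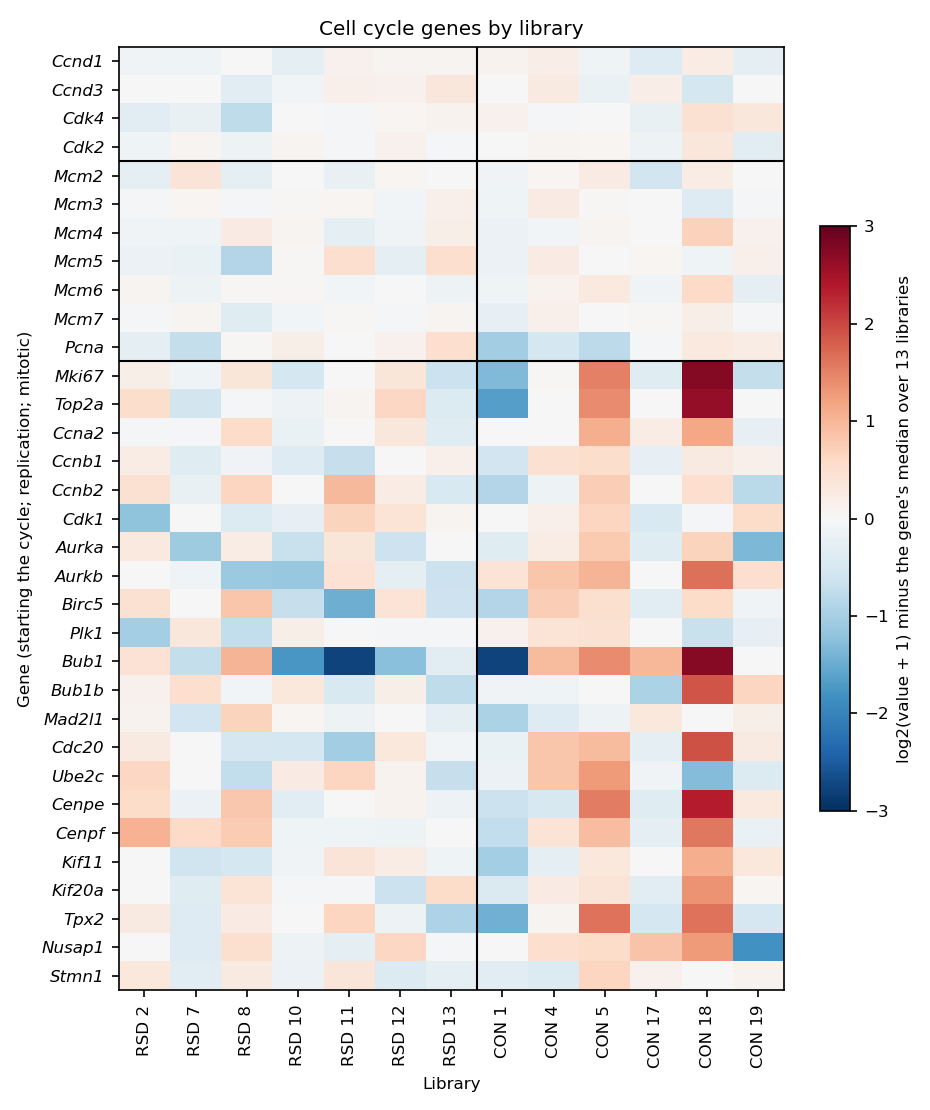
Each cell shows log2(value + 1) of a gene (rows, ordered by role) in a library (columns), minus the median of that gene over 13 libraries; the colour scale is capped at both ends. Most mitotic rows are red in CON 18 and CON 5, except Cdk1, Plk1, Mad2l1, Ube2c and Stmn1 in CON 18 and Bub1b and Mad2l1 in CON 5, and most are blue in CON 1, while the RSD columns hold both colours.

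None of the 29 genes differed between RSD and CON at an adjusted p under 0.05 (limma, Benjamini-Hochberg over all genes), where 0% of all genes tested passed. The smallest adjusted p among the 29 was 0.821. At an unadjusted p under 0.05 there was 1 gene of 29, Cdc20, where 4% of all genes passed. edgeR and DESeq2 also called 0 of the 29, with 1 under the unadjusted threshold in each. There were 2 under it with limma-voom and quality weights. With limma there were 2 in libraries numbered 1 to 8 alone and 0 in those numbered 10 to 19. The matching share of all genes was not counted in these fits. No gene of the 29 had groups that did not overlap, which 0.064% of all genes had. The log2 difference was negative for 23 and positive for 6 of them. Its median was -0.14, against 0.01 over all genes tested.

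That shift rested on 1 control library. Without CON 18 the differences were negative for 14 genes and positive for 15, with a median of 0.01. None of the 29 then had an unadjusted p under 0.05, where 4.95% of all genes did. Without CON 18 and RSD 8 the median was also 0.01, and without any other single library it was -0.20 to -0.10. For the 18 mitotic genes tested the median was -0.22 with all libraries, 0.02 without CON 18 and -0.06 without both. It was -0.13 without CON 5, -0.34 without CON 1 and -0.33 without CON 17. The 7 replication genes had -0.06, with -0.01 without CON 18, 0.01 without RSD 8 and -0.11 without CON 1. For the 4 genes of starting the cycle it was 0.00 and 0.02.

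**Figure D2:**
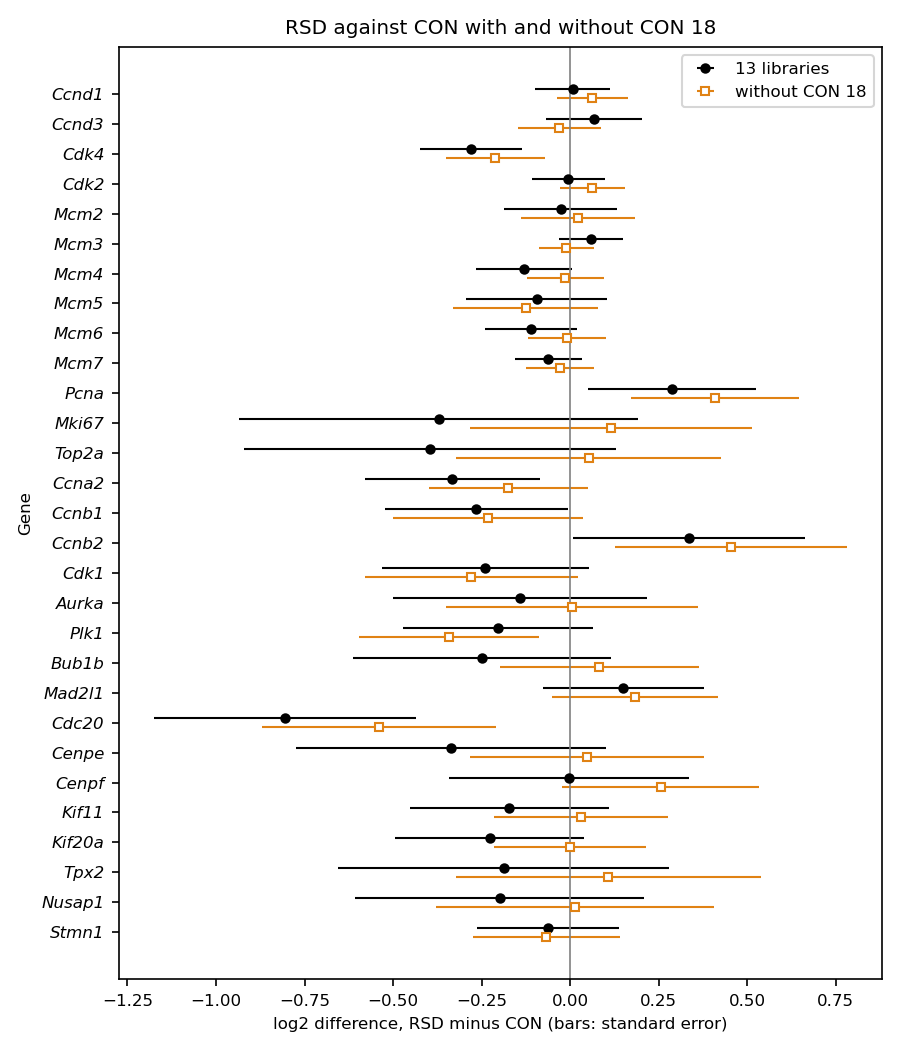
Points give the log2 difference between RSD and CON for each gene tested, on the log2(value + 1) scale, with all 13 libraries (black circles) and without CON 18 (open orange squares); bars are standard errors. Most mitotic genes lie left of 0 with CON 18 and on both sides of 0 without it, and Cdc20 lies farthest left in both.

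The mitotic genes had a wide spread among controls. Summed over the 22, they held 2102 normalized reads in CON 18, 3.46 times the median of the other 12 libraries. CON 5 followed with 1220 and CON 1 was lowest with 388.2. The 3 remaining controls had 569.2 to 658.6, and the 7 RSD libraries had 525.7 to 769.4. Both the highest libraries and the lowest one were controls, and the RSD libraries lay between them.

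Mki67, a protein that coats mitotic chromosomes and marks cycling cells, lies at chr7:135689784-135716361 (minus strand, GENCODE M21 on GRCm38). Its lowest, median and highest values were 77.8, 123 and 160.0 normalized reads in RSD. In CON they were 48.5, 111 and 833. CON 18 (833) and CON 5 (353) stood above every RSD library and CON 1 (48.5) below every one, so the groups overlapped. Means were 122 ± 32.7 in RSD (SD, n = 7) and 255 ± 304 in CON (SD, n = 6). Between the groups the log2 difference was -0.37 ± 0.56 (SE; limma adjusted p = 0.87), and without CON 18 it was 0.12 ± 0.40.

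Top2a, the topoisomerase that untangles sister chromatids, lies at chr11:98992943-99024189 (minus strand). It had a lowest, median and highest value of 24.3, 34.1 and 55.5 normalized reads in RSD and 10.8, 36.0 and 229 in CON. The order of the outer libraries was that of Mki67, with CON 18 highest, CON 5 next at 97.1 and CON 1 lowest. The log2 difference was -0.40 ± 0.53 (limma adjusted p = 0.851) and 0.05 ± 0.37 without CON 18.

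Cdc20, which activates the anaphase-promoting complex, had the smallest p of the 29 genes. Its values were 4.07, 8.89 and 12.0 normalized reads in RSD and 7.69, 14.6 and 38.3 in CON (lowest, median and highest). The 4 controls CON 4, 5, 18 and 19 were at 17.6, 19.2, 38.3 and 11.6, and RSD 2 (11.6) and RSD 12 (12.0) reached into that range. The log2 difference was -0.81 ± 0.37 (limma unadjusted p = 0.0446, adjusted p = 0.821). Without CON 18 it was -0.54 ± 0.33 (limma unadjusted p = 0.121, adjusted p = 0.743). Only 156 reads were counted over all libraries, from 4 to 34 in each. The gene span, introns included, shares 53 bases with that of Elovl1 on the opposite strand.

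Ccna2 encodes cyclin A2, which acts in S phase and G2. It had 26.7, 33.8 and 51.1 normalized reads in RSD and 29.0, 37.7 and 78.9 in CON. CON 18 (78.9) and CON 5 (74.7) were above all RSD libraries, and the other 4 controls lay within the RSD range. Its log2 difference was -0.33 ± 0.25 (limma adjusted p = 0.821), and -0.17 ± 0.23 without CON 18.

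Bub1b, a spindle checkpoint protein, had 12.2, 23.2 and 30.6 normalized reads in RSD and 10.6, 20.6 and 81.1 in CON. Kif20a, a kinesin of cytokinesis, had 29.6, 45.7 and 68.9 in RSD and 34.1, 52.0 and 119 in CON. For both genes CON 18 was the single library above the RSD range by a wide gap. In Bub1b, CON 19 at 33.8 was also above it. Their log2 differences were -0.25 ± 0.37 and -0.23 ± 0.27 (limma adjusted p = 0.865 and 0.839). The gene span of Kif20a, introns included, shares 2327 bases with that of Cdc23 on the opposite strand. Overlap of exons was not measured, and the use of strand in counting is not given in the sources used here.

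**Figure D3:**
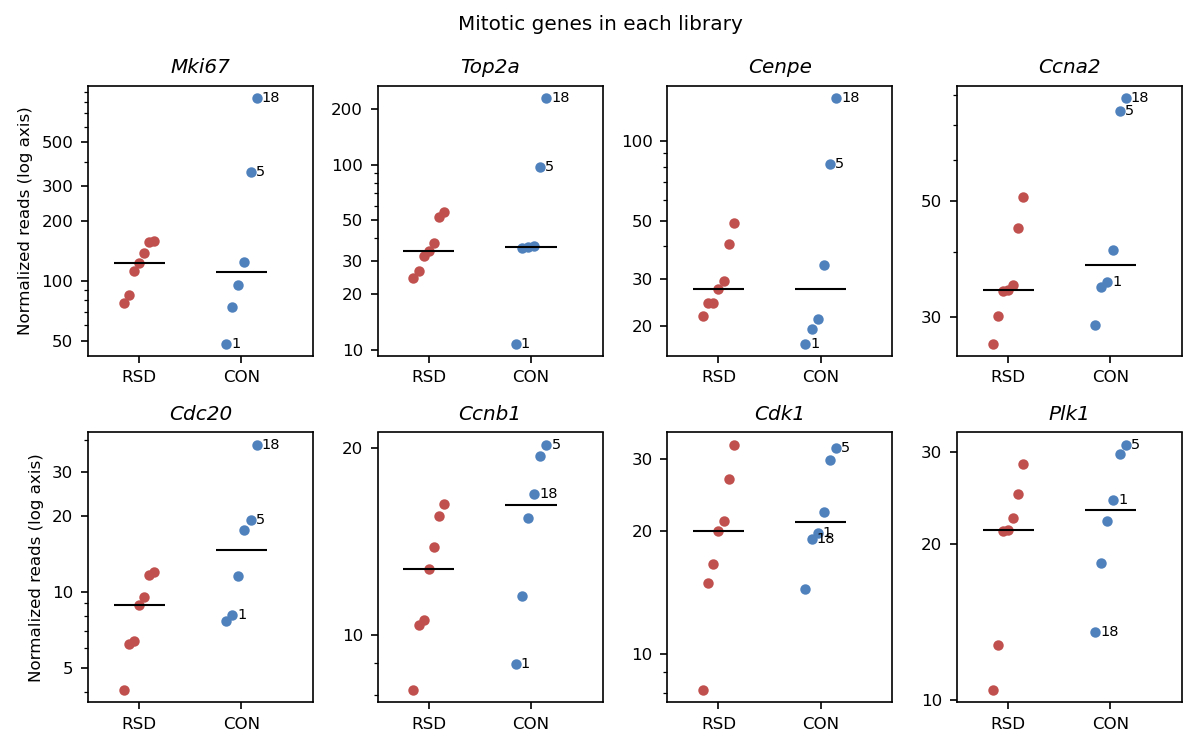
Each point is a library's normalized reads (log axis) for 8 mitotic genes in RSD (red, n = 7) and CON (blue, n = 6), with horizontal bars at group medians and CON 1, 5 and 18 marked by number. CON 18 is the top point for Mki67, Top2a, Cenpe, Ccna2 and Cdc20, and lies within the range of the other points for Ccnb1, Cdk1 and Plk1.

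CON 18 was not high for all mitotic genes. In 13 of the 22 its value was at least 2-fold the median of the other 12 libraries, with folds from 2.23 to 8.58. These were Mki67 (7.06-fold), Top2a (6.41), Bub1 (8.58), the kinetochore motor Cenpe (5.60), Cdc20 (4.17), Bub1b (3.90), the kinase Aurkb (3.50), the spindle factor Tpx2 (3.44), Cenpf of the kinetochore (3.15), Kif20a (2.59), the microtubule binder Nusap1 (2.58), Ccna2 (2.29) and the spindle motor Kif11 (2.23). In the other 9 the fold ran from 0.255 to 1.83. They were Aurka (1.83), a kinase of spindle poles, Birc5 (1.59), the partner of Aurkb, the B-type cyclins Ccnb2 (1.44) and Ccnb1 (1.27), the checkpoint protein Mad2l1 (1.04), Stmn1 (1.02), the mitotic kinases Cdk1 (0.931) and Plk1 (0.608), and Ube2c (0.255), an enzyme that adds ubiquitin for the anaphase-promoting complex. Genes of the same phase, such as Ccnb1, Cdk1 and Plk1 against Cdc20 and Bub1, thus stood on both sides. These classes were drawn from the values and carry no test.

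Gene length moved with this division. Exon length was 1.87 to 15.4 kb (median 4.35) in the 13 genes and 1.53 to 8.39 kb (median 2.60) in the 9. Both sets held genes of few reads, with 96 (Aurkb) to 2257 (Mki67) in all 13 libraries for the 13 genes and 63 (Ube2c) to 627 (Stmn1) for the 9. With all libraries the variance between them was 3.08 (Aurkb) to 224 times (Mki67) what counting alone gives in the 13. It was 1.08 (Ccnb1) to 3.53 times (Aurka) in the 9, so these ranges overlapped. The sets were defined by CON 18, so these values cannot show whether the 13 vary more apart from that library. Without CON 18 the range in the 9 was 1.13 (Ccnb1) to 3.61 times (Mad2l1). Aurkb, Cdc20, Bub1b, Nusap1, Kif11 and Kif20a then lay within it. Mki67 (46.2 times), Top2a, Ccna2, Bub1, Cenpe, Cenpf and Tpx2 lay above it. At equal relative spread such a ratio grows with read number. CON 5 was raised in both sets, with a median of 2.18-fold in the 13 and 1.60-fold in the 9 over the libraries other than CON 5 and CON 18. The part of length and read number in the division was not tested.

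Counted over the genes tested, CON 18 was the highest of the 13 libraries for 16 of 29, or 55.2%, where 21.5% of all genes had their highest value there. Of the 18 mitotic genes it was 10. Once CON 18 was left out, CON 5 was the highest of 12 libraries for 11 of 29 genes, all but 1 of them mitotic, against 6.39% of all genes. CON 1 was the lowest of 13 for 9 of 29, of which 8 were mitotic, against 7.19% of all genes. These libraries were picked after their values were seen, so the counts are a description. CON 5 had no such shift in markers of border macrophages (8157) or microglia. Its sum of 5 neuronal markers was the highest of any library, at 88.6 normalized reads against 25.1 to 77.0 in the others. Of these markers only Syt1 was highest in CON 5, at 31.0 against 4.07 to 17.0. Snap25, Rbfox3, Gad1 and Slc17a7 were each higher in another library.

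Markers of other dividing or immune cells were also summed in CON 18. T and NK cell markers (4 of 9 in the table) summed to 43.9 normalized reads against 10.8 to 23.2 elsewhere. Cd3d at 15.8 and Cd4 at 18.0 were highest in CON 18, against at most 5.81 and 8.44 elsewhere. Cd8a at 4.51 and Lck at 5.63 were within the range of the others. Oligodendrocyte precursor markers (3 of 6) summed to 45.1 against 1.16 to 13.0, nearly all of it Cspg4 at 43.9, with Sox10 at 0 in CON 18. Neuroblast markers (2 of 5) summed to 14.6 against 0 to 10.6, all of it Sox11, with Dcx at 0. Neutrophil markers (7 of 8) were at 45.1 in CON 18, within the 11.6 to 1227 of the others, and 2 of the 7 were at 0. B cell markers (3 of 5) were lowest in CON 18, at 47.3 against 55.3 to 118.5. The 1 erythroid marker of 6 in the table, Alas2, was highest there, at 111.6 against 35.3 to 97.4. Monocyte markers (6 of 8) were highest in CON 18, at 480.1 against 375.1 to 453.6. Of these, Vcan was at 93.5 in CON 18 against 32.4 to 44.7 elsewhere. The receptor Ccr2 was at 347, within the 294.8 to 357.0 of the others. Chil3 was at 1.1, and Plac8 was lowest in CON 18 at 3.38. The part of these cells in the mitotic values was not tested.

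The remaining mitotic genes overlapped widely between the groups. In RSD and CON the means were 31.0 ± 10.0 and 53.2 ± 51.3 normalized reads for Cenpe, and 70.0 ± 25.7 and 77.7 ± 49.8 for Cenpf (SD, n = 7 and 6 here and below). Kif11 had 33.9 ± 8.54 and 41.2 ± 20.2, Tpx2 11.7 ± 4.17 and 17.6 ± 15.5, and Nusap1 13.5 ± 4.11 and 18.3 ± 10.1. All of these had standard deviations in CON that were larger than in RSD. Among those under 2-fold in CON 18, Ccnb1 had 12.5 ± 2.97 and 15.4 ± 4.44, Cdk1 20.0 ± 8.00 and 22.9 ± 6.77, and Plk1 20.2 ± 6.43 and 23.2 ± 6.65. Aurka had 17.3 ± 6.52 and 20.2 ± 10.2, and Stmn1 48.4 ± 11.8 and 50.9 ± 14.5. Ccnb2 and Mad2l1 were the mitotic genes with a higher mean in RSD, at 15.7 ± 5.81 against 12.7 ± 6.03 and 43.6 ± 12.4 against 39.6 ± 11.6. Their log2 differences were 0.33 ± 0.33 and 0.15 ± 0.23 (limma adjusted p = 0.825 and 0.869).

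The 4 untested mitotic genes had a few reads per library. Aurkb had 4.49 ± 2.18 normalized reads in RSD and 11.1 ± 5.11 in CON. Its RSD libraries ran from 2.08 to 8.14 and its controls from 5.77 to 20.3, so they overlapped. When no filter was applied its log2 difference was -1.15 ± 0.36, with a limma adjusted p = 0.84 (unadjusted p = 0.00542). The share of all genes under that unadjusted p was not counted. Without CON 18 the controls had 9.30 ± 2.74 normalized reads of Aurkb, and the groups still overlapped. Bub1 had 4.49 ± 4.52 and 15.2 ± 15.3, with 0 reads in CON 1 and RSD 11 and 43.9 normalized reads in CON 18. Birc5 had 7.50 ± 4.21 and 8.51 ± 3.66, and Ube2c had 4.64 ± 2.01 and 5.26 ± 3.97. The gene span of Ube2c, introns included, shares 1662 bases with that of Tnnc2 on the opposite strand.

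The bases around the start sites were searched for the elements known to time cell cycle transcription. Of the 33 genes, 26 were found in RefSeq's table of start sites (GRCm38.p6), with 28 windows of 250 bases before to 50 after the start. The cell cycle homology region, bound by the repressor DREAM in resting cells and by its activating partners later, was searched as TTTGAA or TTCGAA on both strands. The CCAAT box, bound by NF-Y, was searched as CCAAT. The E2F element was searched as TTTCGCGC, TTTGGCGC, TTTCCCGC or TTTGCCGC. The 4 windows printed are shown because they held the most matches in their role group, with matches in capitals and each printed 5′ to 3′ on the gene's strand. They are Top2a at chr11:99024140-99024439 (minus strand), Ube2c at chr2:164769679-164769978 (plus), Mcm7 at chr5:138171834-138172133 (minus) and Cdk2 at chr10:128705002-128705301 (minus).
Top2a: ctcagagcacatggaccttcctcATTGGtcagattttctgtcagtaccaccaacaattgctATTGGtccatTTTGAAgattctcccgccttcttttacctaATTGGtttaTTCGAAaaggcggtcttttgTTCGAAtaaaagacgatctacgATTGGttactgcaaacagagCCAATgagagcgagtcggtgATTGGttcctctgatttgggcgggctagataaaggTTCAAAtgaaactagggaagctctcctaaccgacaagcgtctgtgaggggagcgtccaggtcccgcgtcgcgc
Ube2c: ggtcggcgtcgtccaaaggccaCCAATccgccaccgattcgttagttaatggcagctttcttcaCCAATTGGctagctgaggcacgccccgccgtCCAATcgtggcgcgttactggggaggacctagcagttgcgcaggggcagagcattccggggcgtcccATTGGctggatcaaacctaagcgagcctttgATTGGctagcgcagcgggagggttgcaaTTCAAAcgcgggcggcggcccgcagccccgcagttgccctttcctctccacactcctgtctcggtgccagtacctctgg
Mcm7: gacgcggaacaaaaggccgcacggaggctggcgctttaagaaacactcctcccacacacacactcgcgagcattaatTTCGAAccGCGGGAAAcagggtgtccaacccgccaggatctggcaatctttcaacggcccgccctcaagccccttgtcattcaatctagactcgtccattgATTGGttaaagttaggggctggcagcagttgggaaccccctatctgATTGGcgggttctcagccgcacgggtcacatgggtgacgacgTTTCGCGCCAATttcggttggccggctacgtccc
Cdk2: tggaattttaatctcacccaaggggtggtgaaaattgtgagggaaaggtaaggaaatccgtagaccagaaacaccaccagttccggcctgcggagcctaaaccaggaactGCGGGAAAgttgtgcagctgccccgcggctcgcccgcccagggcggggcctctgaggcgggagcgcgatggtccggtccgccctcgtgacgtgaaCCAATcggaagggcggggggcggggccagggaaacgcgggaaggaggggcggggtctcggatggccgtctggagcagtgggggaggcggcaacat
The Top2a window held 4 cell cycle homology matches and 6 CCAAT boxes. In Ube2c there were 1 and 6, of which 2 CCAAT boxes overlap on opposite strands. In Mcm7 there were 1 cell cycle homology match, 3 CCAAT boxes and 2 E2F elements, and the E2F match nearest the start overlaps a CCAAT box. The Cdk2 window had 1 CCAAT box and 1 E2F element.

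By role, a cell cycle homology match was found in 12 of 17 mitotic windows (70.6%), 2 of 7 replication windows and 0 of 4 windows of starting the cycle. Among all 32851 windows 19.2% had it. A CCAAT box was found in 14 of 17 mitotic windows (82.4%), in 7 of 7 replication windows and in 2 of 4 of the rest, and in 37.4% of all windows. An E2F match was found in 4 of 7 replication windows (57.1%), 1 of 17 mitotic windows (5.88%), 1 of 4 windows of starting the cycle and 2.26% of all windows. Mitotic windows of genes that were at least 2-fold in CON 18 held a cell cycle homology match in 7 of 9, and those of the other mitotic genes in 5 of 8. Top2a and Ube2c, printed above, had the same kinds of match. In CON 18, Top2a was at 229 normalized reads. Ube2c was at 1.13 there, with 63 reads over all libraries, too few to place it as low. A match is a stretch of letters and not a measured binding site.

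Among the replication genes the variance between libraries was 134 times what counting alone gives for Pcna and 2.01 to 5.22 times for the Mcm genes. At equal relative spread this ratio grows with read number, so it does not compare their relative spread. Pcna had 19305 reads over the 13 libraries, and the Mcm genes 813 (Mcm5) to 5584 (Mcm3). Pcna lies at chr2:132249162-132253314 (minus strand). Its lowest, median and highest values were 988, 1649 and 2286 normalized reads in RSD and 789.9, 1346 and 1990 in CON. RSD 13 was highest, and CON 1 (789.9) and CON 5 (945.6) were below every RSD library, with the other 4 controls within the RSD range. RSD minus CON gave a log2 difference of 0.29 ± 0.24 (limma adjusted p = 0.821) and 0.41 ± 0.24 without CON 18.

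Pcna followed the sample numbers. The labels number the libraries 1 to 19 with gaps and give no batch. Pcna was 1140 ± 312 normalized reads in numbers 1 to 8 (SD, n = 6) and 1853 ± 241 in numbers 10 to 19 (SD, n = 7). Numbers 1, 2, 4, 5 and 7 were at 789.9 to 1346 and number 8 at 1649, while numbers 10 to 19 were at 1572 to 2286, so the ranges overlapped through RSD 8. With the group in the model the log2 difference between the ranges was 0.72 ± 0.13 (limma adjusted p = 0.0233). Pcna was the only 1 of the 29 genes called higher in numbers 10 to 19, where 0.528% of all genes were, and 0 of the 29 were called lower, where 0.16% were. This comparison was chosen after the values were seen. Its adjusted p was 0.0229 in edgeR and 0.00014 in DESeq2.

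The call for Pcna by number ended when some single libraries were left out and held without others. Over all such fits the limma adjusted p ran from 0.00903 to 0.0686, at log2 differences of 0.641 to 0.824. The limma adjusted p was 0.0647 without CON 5, 0.0676 without RSD 7, 0.0632 without RSD 13 and 0.0686 without CON 19, at log2 differences of 0.65 to 0.69. Without CON 18 and RSD 8 it was 0.0206. Within numbers 1 to 8 the log2 difference of Pcna between RSD and CON was 0.46 (limma adjusted p = 0.208), and within 10 to 19 it was 0.04. Neutrophil markers also moved with the numbers, at 195.9 to 1227 normalized reads in 1 to 8 and 11.6 to 139.2 in 10 to 19. Their part in Pcna was not tested. The annotation names 2 pseudogenes of Pcna, whose reads could not be told from those of the gene if counted together.

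**Figure D4:**
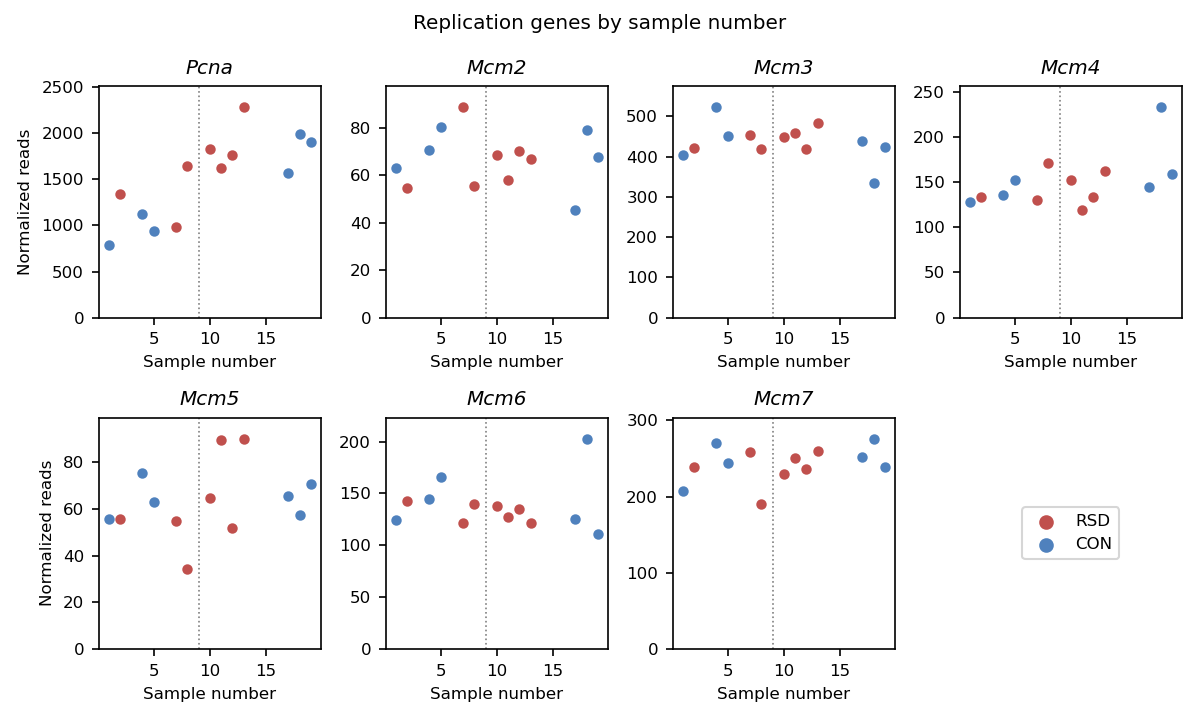
Normalized reads (from 0) of the 7 replication genes are plotted against sample number, RSD in red and CON in blue, with a dotted line between numbers 8 and 10. Pcna sits at 789.9 to 1649 left of the line and 1572 to 2286 right of it, and no Mcm gene was called between the ranges.

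The Mcm genes encode the 6 subunits of the helicase that unwinds DNA at the fork. Mcm4 had 119, 134 and 171 normalized reads in RSD and 129, 148 and 233 in CON (lowest, median and highest). CON 18 at 233 stood above all others, and the other 5 controls lay within the RSD range. Its log2 difference was -0.13 ± 0.14 (limma adjusted p = 0.829) and -0.01 ± 0.11 without CON 18. Means in RSD and CON were 66.0 ± 11.9 and 67.5 ± 12.8 for Mcm2, 443 ± 25.0 and 429 ± 61.7 for Mcm3, and 62.9 ± 20.5 and 64.5 ± 7.48 for Mcm5. They were 132 ± 8.91 and 146 ± 33.9 for Mcm6, and 238 ± 23.8 and 248 ± 24.6 for Mcm7. The subunits did not share 1 order of libraries. CON 18 was highest for Mcm4, Mcm6 and Mcm7 and lowest for Mcm3, and RSD 8 was lowest for Mcm5 (34.1) and Mcm7 (190.5). Mcm7 is also the host gene of the miRNAs Mir25, Mir93 and Mir106b.

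Genes that start the cycle were close between the groups. Cdk4, the kinase partner of the D-type cyclins, had 175, 290.1 and 321 normalized reads in RSD and 255, 312 and 409 in CON. RSD 8 was lowest at 175 and CON 18 and CON 19 were highest at 409 and 378. The log2 difference was -0.28 ± 0.14 (limma unadjusted p = 0.0686, adjusted p = 0.821) and -0.21 ± 0.14 without CON 18. Ccnd3, cyclin D3, had 135, 167 and 212 in RSD and 116, 168 and 204 in CON, and CON 18 held its lowest value. Its log2 difference was 0.07 ± 0.14 (limma adjusted p = 0.902) and -0.03 ± 0.12 without CON 18. Ccnd1 had means of 1029 ± 102 and 1033 ± 178, and Cdk2, the kinase of S phase entry, 248 ± 18.6 and 251 ± 39.7. The gene spans of Cdk4, Ccnd1, Ccnd3 and Cdk2, introns included, each overlap that of a gene on the opposite strand.

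The rest of the pathway was read from lists of other genes. Of 40 origin and fork genes tested, 0 were called, 22 were positive and 18 negative, with a median log2 difference of 0.01. Orc4 and Orc2, subunits of the origin recognition complex, were at 0.23 ± 0.12 and 0.15 ± 0.10. Rfc2 and Rfc5, of the complex that loads Pcna, were at -0.23 ± 0.10 and -0.21 ± 0.11. Rfc2 was the single gene of this list with an unadjusted p under 0.05 (limma adjusted p = 0.821, unadjusted p = 0.0391).

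Of 28 genes that regulate the entry to S phase, 0 were called, with 16 positive, 12 negative and a median of 0.02. E2f5, a repressive E2F factor, was at 0.29 ± 0.14 and Cdk7, the kinase that activates other cyclin-dependent kinases, at 0.15 ± 0.08. E2f4, the main E2F factor of resting cells, was at -0.17 ± 0.12. Ccnd2, cyclin D2, was at -1.45 ± 0.83, with 270.5 normalized reads in CON 18 and at most 18.1 in any other library. Without CON 18 it was at -0.66. Unlike Ccnd2, the D-type cyclins Ccnd1 and Ccnd3 were at 1.22-fold and 0.690-fold in CON 18.

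Of 19 inhibitors and brakes, 0 were called, with 15 positive, 4 negative and a median of 0.09. Btg2, an antiproliferative gene, was at 0.22 ± 0.11 and Ccng2, an atypical cyclin of resting cells, at 0.15 ± 0.09. Trp53, which encodes p53, was at -0.21 ± 0.12 and the kinase inhibitor Cdkn2b at -0.30 ± 0.24. Of 17 genes of the anaphase-promoting complex and its partners, 0 were called, with 9 positive and 8 negative and a median of 0.04. Its subunits Anapc10 and Anapc15 were at 0.21 ± 0.16 and 0.14 ± 0.10, and Anapc11 and Anapc7 at -0.20 ± 0.13 and -0.13 ± 0.09.

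Of 38 other mitotic genes tested (61 were named), 0 were called, with 10 positive, 28 negative and a median of -0.17. Without CON 18 there were 19 of each sign and a median of -0.0035. Hmmr, a spindle protein, was at -0.63 ± 0.34 and the checkpoint gene Bub3 at -0.16 ± 0.09. The kinetochore gene Zwint was at 0.16 ± 0.10 and Iqgap3 at 0.20 ± 0.14. CON 18 was the highest library for 25 of these 38 (65.8%), next to 10 of 40 origin and fork genes (25%), 11 of 28 regulators of S phase entry (39.3%), 7 of 19 brakes (36.8%) and 3 of 17 genes of the anaphase-promoting complex (17.6%). The value for all genes was 21.5%, so the mitotic lists and the genes described above had the larger shares.

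**Figure D5:**
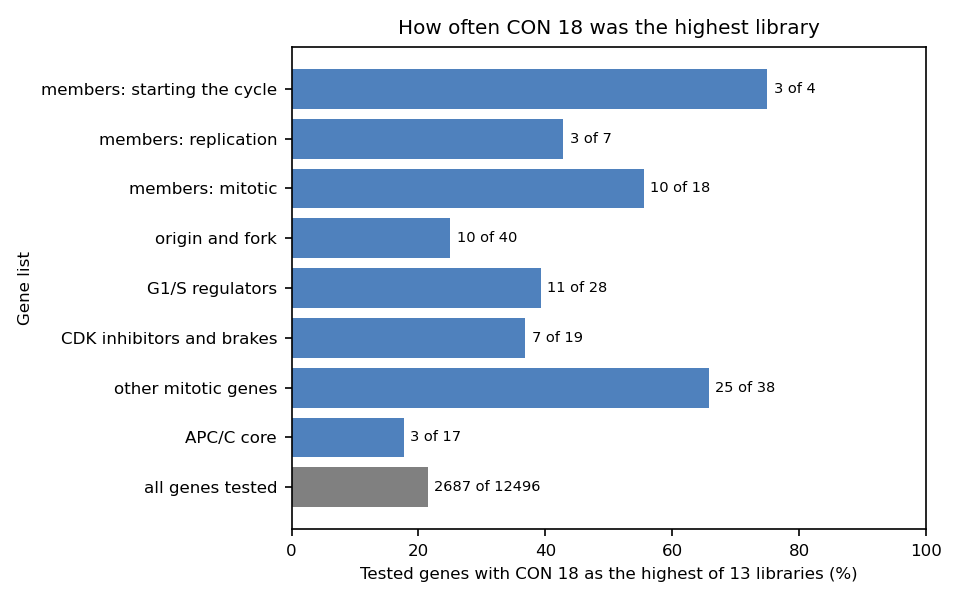
Bars give the percentage of tested genes in each list for which CON 18 was the highest of 13 libraries, from 0 to 100, with counts beside them; the grey bar is all genes tested. The mitotic genes (10 of 18), the other mitotic genes (25 of 38) and the 4 genes of starting the cycle (3 of 4) exceed the 21.5% of all genes by the most.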

How the data were processed

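RNA of sorted microglia was sequenced in 13 libraries (RSD, n = 7; CON, n = 6), after Percoll enrichment, the PicoPure kit and Ovation SoLo libraries with AnyDeplete, per the labels. STAR, DESeq2 and mm10 are named in the submitters' processing notes; which counter, annotation or strand setting was used is not given in the sources used here. Each deposited signal is a read count divided by a size factor, read from the values: 100% were whole reads within 0.01. Genes kept by edgeR's filterByExpr (count 10, total 15) were compared with limma 3.58.1 (R 4.3.3) on log2(value + 1), trend and robust, two-sided, threshold 0.05, tested on simulated data. Fold changes on this scale understate those of low genes. Alternatives were edgeR 4.0.16 and DESeq2 1.42.0 on the recovered reads, limma-voom with quality weights, TMM scaling, pseudocount 5, no filter, subsets of libraries, and leaving out each library.

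The genes, lists and comparisons were chosen with earlier results of these data known. Every cell cycle gene was named. Lowest, median and highest values were given for Mki67, Top2a, the smallest 2 p of each role and genes with a library far from its group. From each pathway list the smallest 2 p in each direction were named. In the table Casc5, Sgol1 and Sgol2 stand for Knl1, Sgo1 and Sgo2a. At this depth values of a few reads are imprecise.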

Additional observations from a re-analysis of the deposited data

Results flagged for a closer look

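Within each group, the gap between the highest or lowest library and its nearest neighbour was set against the range of the group for all 33 genes, 66 groups in all. Chance gives such a gap in about 1 in 20 groups of independent, normally spread values, which these need not be. The 3 found were not above that rate, and each was in the controls with CON 18 on top. Mcm4 was at 233.3 normalized reads in CON 18, with the other controls at 128.5 to 158.6. For Bub1b, CON 18 held 81.1 and the remaining controls 10.6 to 33.8. Kif20a was at 119.5 in CON 18 and 34.1 to 60.8 in the others. Mki67 and Top2a did not meet this rule, since CON 5 narrowed the gap below CON 18.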

How the results depend on the processing

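Under 23 other settings no cell cycle gene was called between RSD and CON, and the smallest adjusted p of one was 0.204 (limma). DESeq2 called 2 of all genes. The sign of the log2 difference changed in at least 1 setting for 24 of 49 genes, none of them called, and the cause was not tested. Ccnd1 was at -0.0115 in edgeR and -0.00789 in DESeq2. With limma-voom and quality weights, Cdk2 was at 0.0407, Mcm3 -0.00136, Mcm5 0.049, Mcm7 0.00255, Bub1b 0.0194 and Kif11 0.0917. Without CON 18 and RSD 8, Cdk2 was at 0.0862, Mcm2 0.0614, Mcm5 0.00788, Mcm7 0.0221, Mki67 0.0468, Top2a 0.0651, Bub1b 0.0902, Cenpf 0.176, Kif11 0.101 and Tpx2 0.0577. Within sample numbers 1 to 8, Ccnd1 was at -0.142, Ccnd3 -0.139, Mcm3 -0.0803, Mcm4 0.0542, Mki67 0.065, Top2a 0.045, Bub1b 0.258, Cenpe 0.258, Cenpf 0.581, Stmn1 0.104 and Iqgap3 -0.0975. Within 10 to 19, Cdk2 was at 0.0853, Mcm2 0.0764, Mcm5 0.163, Cdk1 0.208, Aurka 0.121, Plk1 0.325, Mad2l1 -0.246, Orc4 -0.0497 and Anapc10 -0.193. With the number range as a term, Cenpf was at 0.0249.

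Leaving out each library in turn, values ran from -0.0603 to 0.0618 for Ccnd1, -0.031 to 0.131 for Ccnd3, -0.0712 to 0.0628 for Cdk2, -0.135 to 0.0268 for Mcm2, -0.0107 to 0.118 for Mcm3 and -0.19 to 0.0393 for Mcm5. Among mitotic genes they ran from -0.7 to 0.115 for Mki67, -0.805 to 0.0521 for Top2a, -0.398 to 0.0285 for Aurka, -0.483 to 0.0821 for Bub1b, -0.008 to 0.248 for Mad2l1, -0.556 to 0.047 for Cenpe and -0.207 to 0.255 for Cenpf. They ran from -0.389 to 0.0315 for Kif11, -0.503 to 0.109 for Tpx2, -0.609 to 0.0132 for Nusap1 and -0.149 to 0.0638 for Stmn1. Of these genes the upper end came without CON 18 for Ccnd1, Cdk2, Mki67, Top2a, Bub1b, Cenpe, Cenpf, Kif11 and Nusap1, and the lower end without CON 18 for Ccnd3 and Mcm3 and without CON 1 for Mki67, Top2a, Mad2l1, Cenpe, Cenpf, Kif11 and Tpx2.

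Between the number ranges 86 of all genes were called in limma, 255 in DESeq2, 265 with quality weights and 247 without CON 18 and RSD 8. Leaving out each library gave 30 (without CON 19) to 171 (without CON 18), and 0 to 1 cell cycle genes. No paired analysis was possible because the groups share no replicate number. Depth limits the genes with a few reads per library, such as Ube2c, Aurkb, Birc5 and Bub1.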
